A study of Homo sapiens with 7 samples.

Results

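The 10 genes described here encode cell cycle regulators of ubiquitin ligases: CDC20, FZR1, FBXO5, SKP2, CKS1B, CKS2, CCNF, UBE2C, UBE2S and DTL. They were chosen by name from a total of 19962 protein-coding genes on chromosomes 1 to 22 and X. The choice was made with earlier results of these data known. A gene was scored as bound in a library when a called Rb peak touched its promoter, taken as 2000 bp before to 500 bp after any of its annotated transcription start sites (TSSs). Where several peaks met this rule, the peak with the highest fold enrichment was used. Peaks elsewhere in the gene were listed separately.

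Rb, the retinoblastoma protein encoded by RB1, was mapped by CUT&RUN, in which an antibody-directed nuclease releases DNA fragments around a bound protein for sequencing. All 7 libraries came from ZR-75-1, an oestrogen receptor-positive breast cancer cell line, after 4 days in 500 nM palbociclib, an inhibitor of CDK4 and CDK6, or in DMSO. The Rb antibody was used on parental cells (2 libraries per treatment) and on RB1 KO cells (1 library per treatment), and a mouse IgG2a antibody on parental cells with palbociclib (1 library). The study's methods describe a single experiment with separate biological replicates, and RB1 KO cells derived from single sorted cells after CRISPR-Cas9 editing, so clonal differences and loss of RB1 cannot be told apart.

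The anaphase-promoting complex (APC/C) and SCF are ubiquitin ligases that drive the cell cycle by marking cyclins, kinase inhibitors and other regulators for destruction. CDC20 and FZR1 (CDH1) are the coactivators that bring substrates to the APC/C, FBXO5 (EMI1) inhibits it, and UBE2C and UBE2S are the conjugating enzymes that start and extend its ubiquitin chains. SKP2 is the F-box protein that directs SCF to the kinase inhibitor CDKN1B, with CKS1B as its cofactor and CKS2 as the paralogue of CKS1B. CCNF (cyclin F) is an F-box protein, and DTL (CDT2) is the substrate receptor of a CUL4 ligase that degrades CDT1 during DNA replication. Many of these genes are textbook targets of E2F factors, which Rb binds, or of complexes that sit on CHR elements (cell cycle genes homology regions) late in the cell cycle.

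Promoter stretches are shown first, with the motif letters to which the later results refer. CKS2 is included for its letters although it had no peak. All were read 5′ to 3′ from hg38 on the gene's own strand. Capitals mark matches to E2F, CHR, CCAAT or CRE motifs on either strand. The E2F match here reads TTTGGCGC and the CRE match TGACGTCA. The CHR match is TTTGAA on one of the strands. A match is a description of the letters only. Stretches longer than 30 bases overlap no annotated exon.
CDC20, chr1:43358873-43358938, -108 to -43 from the TSS: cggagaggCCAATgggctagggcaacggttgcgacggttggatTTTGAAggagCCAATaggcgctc
CCNF, chr16:2429333-2429375, -61 to -19 from the most upstream TSS: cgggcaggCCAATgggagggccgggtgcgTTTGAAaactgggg
CKS1B, chr1:154974639-154974668, at the most upstream TSS: gcgggcggcgtgTTTGAAagcgaggccaaa
CKS2, chr9:89311117-89311179, -78 to -16 from the TSS: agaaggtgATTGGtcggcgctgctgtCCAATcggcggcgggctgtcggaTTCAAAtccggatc
DTL, chr1:212035722-212035751, -26 to 3 from the canonical TSS: cagagagcgTGACGTCAgTTTGGCGCggag
SKP2, chr5:36152167-36152196, in transcribed sequence 56 to 85 bp from the canonical TSS: cacgctcggagccgccgcGCGCCAAAgcgg
FBXO5, chr6:152983507-152983536, centred on the palbociclib summit with the higher enrichment, no such letters: ccgtcttccggaaagtctggattcccggac

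The lists had similar background floors, the lowest local background in a list, which scales with the sequenced fragment bases. These floors were 0.571 and 0.465 fragments for DMSO, compared with 0.516 and 0.549 for palbociclib. On chromosomes, 922 and 753 peaks were listed for DMSO, 8314 and 8171 for palbociclib and 1724 for IgG2a. The RB1 KO lists held 4 peaks with DMSO and 5 with palbociclib. A gene without a listed peak may still have bound Rb below the calling threshold. MACS2 fold enrichment is the number of fragments over the summit relative to the local background, each plus 1, and every enrichment below is that deposited value. The study called peaks against matched IgG controls. For the Rb lists the local background is therefore derived from the control, with the floor of the list as its minimum. In a bulk assay, binding in more cells and more binding per cell cannot be told apart.

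With palbociclib, 8 of the 10 genes carried an Rb promoter peak in both libraries, compared with 34.9% of all protein-coding genes. These were CDC20, FBXO5, SKP2, CKS1B, CCNF, UBE2C, UBE2S and DTL. With DMSO, 3 of the 10 had a peak in both libraries, FBXO5, CCNF and DTL, compared with 2.91% of all genes. The same 3 were called in all 4 parental Rb lists, again against 2.91%. The other 5 genes bound with palbociclib had no peak in either DMSO list, a pattern shared by 28.4% of all genes. FZR1 and CKS2 had no promoter peak in either palbociclib list, a count of 2 of 10 against 56.3% of all genes. No gene of the set was called in a single palbociclib list or in a single DMSO list. Of all 19962 genes, 1759 were called in a single palbociclib list. A further 731 were called in both palbociclib lists and 1 DMSO list. Both shares are small, so their absence among 10 genes is not particular to this set. All counts here rest on the length of the lists. With only the 816 best peaks of each parental list, 4 of the 10 genes were bound in both palbociclib libraries, compared with 3.82% of all genes. Under that limit 1 gene, SKP2, was called with palbociclib alone, compared with 0.731% of all genes.

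The control libraries held no peak at these promoters. With IgG2a, 0 of the 10 genes had a promoter peak, against 1.95% of all genes. In RB1 KO cells 0 of the 10 had one in either library, against 0.0100% of all genes, and those lists were too short for absence there to be particular to these genes. The IgG2a peak nearest to any of the 10 lay 20.7 kb upstream of DTL.

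**Figure D1:**
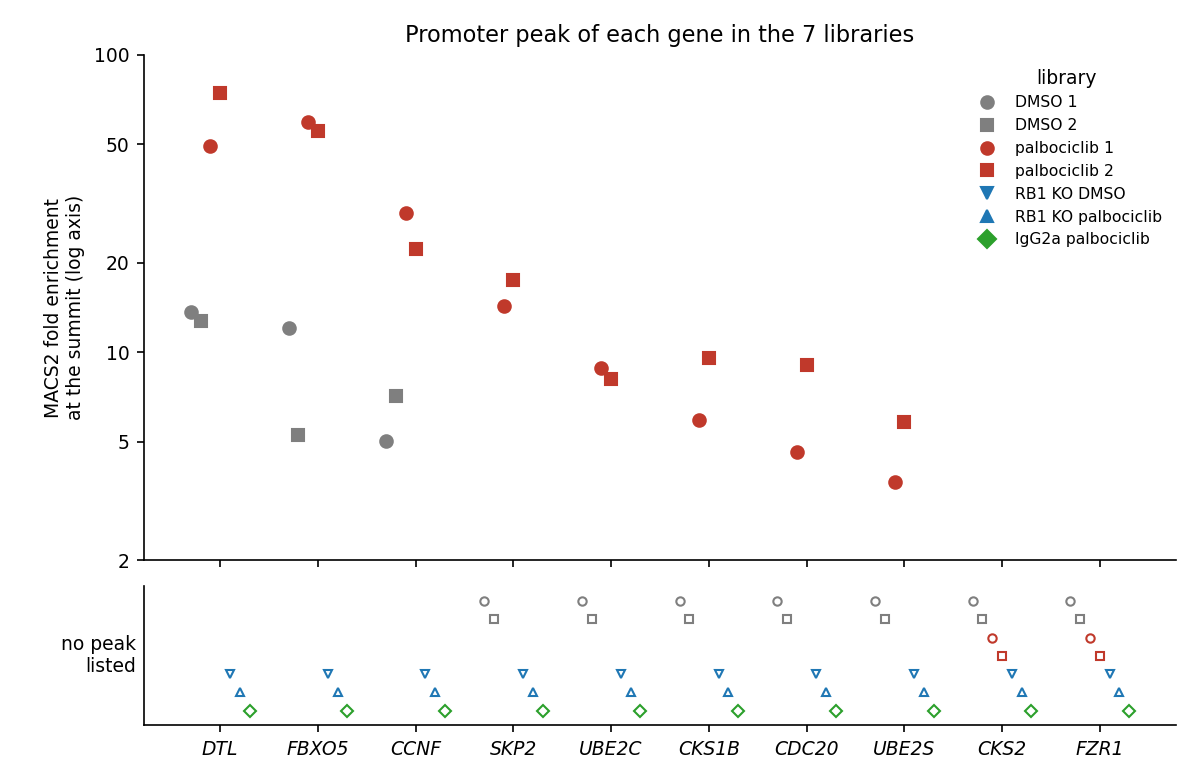
MACS2 fold enrichment (log axis) of the promoter peak of each gene in each of the 7 libraries, with open symbols in the lower strip where no peak was listed. DTL, FBXO5 and CCNF had peaks in all 4 parental Rb libraries, with both palbociclib points above both DMSO points, and no gene had a peak with IgG2a or in RB1 KO cells.

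The 3 genes already bound with DMSO were DTL, FBXO5 and CCNF, and their peaks were higher and wider with palbociclib. DTL, the CUL4 substrate receptor, had the most enriched peak of the set. Its fold enrichment was 13.7 and 12.7 in DMSO libraries, compared with 49.4 and 74.1 under palbociclib. Its summits were covered by 66 and 58 fragments without drug, compared with 240 and 266 with it. Neither fold enrichment nor fragments overlapped between the groups. Within each list ordered by -log10 q, the DTL peak stood at position 21 of 996 and 19 of 816 for DMSO, and at 5 of 8399 and 2 of 8256 for palbociclib. DTL was therefore near the top of every parental list, and positions in lists of such different lengths are not compared.

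FBXO5 encodes the inhibitor of the APC/C. Its fold enrichment was 12.1 and 5.29 in DMSO libraries, compared with 59.4 and 55.6 under palbociclib. The DMSO replicates differed more from each other than the palbociclib replicates did. The summits had 24 and 18 fragments with DMSO, over local backgrounds of 1.07 and 2.59, and 111 and 107 fragments with palbociclib, over 0.887 and 0.942. The local background used for calling was thus lower for both palbociclib libraries. The ratio of fragments, 5.24, was smaller than the ratio of fold enrichment, 7.18. The latter depended on the DMSO library used, being 10.9 without DMSO replicate 1 and 4.75 without DMSO replicate 2. With DMSO replicate 2 left out, FBXO5 was below CCNF at 5.09, so the order of the ratios of these genes is not fixed.

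At CCNF, cyclin F, enrichment was 5.02 and 7.15 in DMSO libraries, against 29.4 and 22.2 under palbociclib. The fragments over its summits numbered 18 and 21 without drug, compared with 87 and 79 with it. Its local background was similar in both groups, at 2.78 and 2.08 for DMSO, then 1.99 and 2.61 for palbociclib. Fold enrichment and fragments therefore gave the same ratio, 4.26.

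On the log2 scale, the palbociclib minus DMSO difference in fold enrichment was 2.84 ± 0.60 for FBXO5, 2.20 ± 0.30 for DTL and 2.09 ± 0.33 for CCNF (SE, n = 2 per group). In fragments it was 2.39 ± 0.21, 2.03 ± 0.12 and 2.09 ± 0.13 in the same order. Each of these exceeded its replicate spread. The exact two-sided permutation test on log2 fold enrichment gave p = 0.333 for each, the smallest value that 6 splits of 4 libraries allow, so this design cannot pass 0.05. The direction was not particular to these genes. Both palbociclib values exceeded both DMSO values in 3 of 3, and in 100% of the 580 genes called in all 4 lists. The median log2 difference was 2.20 over the 3 genes and 1.88 over the 580.

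Peaks of these 3 genes reached further out at both ends with palbociclib, at DTL mainly at the downstream end. DTL peaks were 582 and 773 bp wide without drug, and 1119 and 1106 bp wide with it. FBXO5 peaks measured 521 and 580 bp, then 1101 and 1011 bp. CCNF peaks measured 566 and 268 bp, then 1600 and 1288 bp. Width followed the same pattern in 3 of 3 genes and in 100% of the 580. The median width ratio was 1.92 over the 3 genes, below the 2.77 over all 580, and CCNF at 3.46 was the only one of the 3 above that value.

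**Figure D2:**
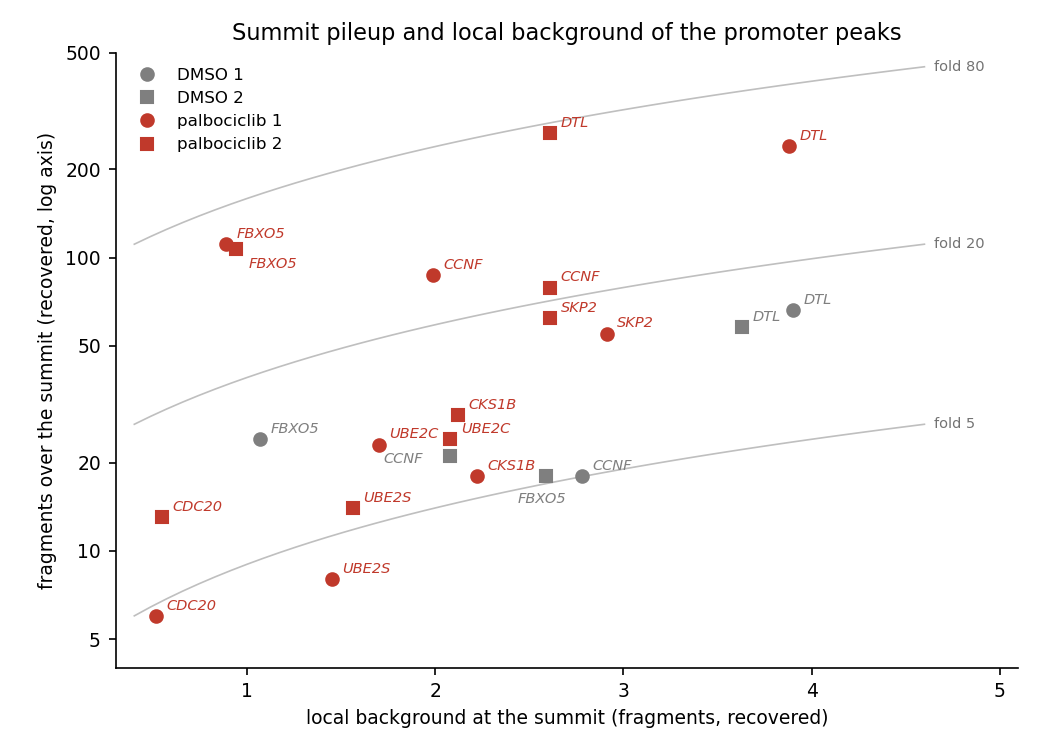
Fragments over each promoter peak summit (log axis) against the local background there, both recovered from the deposited values, with grey lines of equal fold enrichment. DTL, FBXO5 and CCNF moved up the fragment axis with palbociclib, whereas both CDC20 peaks sat at the lowest backgrounds, with 6 and 13 fragments.

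Of the 5 genes called only with palbociclib, SKP2 had the strongest peak. Its fold enrichment was 14.3 and 17.5, from 55 and 62 fragments over backgrounds of 2.91 and 2.61. DMSO peaks at backgrounds of at least 2.61 had no fewer than 13 and 14 fragments in the respective lists. SKP2 with palbociclib was thus several times above the lowest level called there, and its DMSO signal was under the threshold by an unknown amount.

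UBE2C, which starts APC/C ubiquitin chains, gave the closest replicates of these 5, with fold enrichments of 8.89 and 8.11 and 23 and 24 fragments. CKS1B, the SKP2 cofactor, had fold enrichments of 5.91 and 9.61, with 18 and 29 fragments. DMSO peaks at or above the lower palbociclib background of UBE2C, 1.70, had at least 10 fragments in both lists. Those at or above that of CKS1B, 2.12, had at least 11 and 12. Both genes exceeded those limits in both palbociclib libraries.

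CDC20 and UBE2S had the weakest peaks, and their calls were the least certain. CDC20 had fold enrichments of 4.62 and 9.04, from 6 and 13 fragments over backgrounds of 0.516 and 0.549, which are the floors of the respective lists. UBE2S, which extends APC/C chains, had fold enrichments of 3.67 and 5.85, from 8 and 14 fragments. In the first palbociclib list the UBE2S peak stood at position 8158 of 8399 by -log10 q, and the CDC20 peak at 7414. The smallest DMSO peaks at or above the lower palbociclib background of UBE2S, 1.45, had 9 and 10 fragments. For CDC20, at 0.516 or above, they had 6 in both lists, which is the lowest number called in either list. The first palbociclib library therefore did not exceed the DMSO limit at either gene, so a gain at these promoters was not detectable there. Requiring a -log10 q or a fold enrichment of at least 5 removed both genes and left 3 called only with palbociclib, compared with 23.3% and 22.3% of all genes under the respective limits.

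Ordered by mean palbociclib fold enrichment, DTL (61.7 ± 17.4, SD, n = 2) and FBXO5 (57.5 ± 2.66) came first, followed by CCNF (25.8 ± 5.09) and SKP2 (15.9 ± 2.22). UBE2C (8.50 ± 0.555), CKS1B (7.76 ± 2.62), CDC20 (6.83 ± 3.12) and UBE2S (4.76 ± 1.54) followed. DTL and FBXO5 overlapped each other, as did UBE2C, CKS1B and CDC20 among themselves, and UBE2S overlapped CDC20. CCNF and SKP2 overlapped no neighbour in this order. Among the 6972 genes with a peak in both palbociclib lists, DTL stood at position 12 and FBXO5 at 22, and CCNF exceeded 95.0% of them. SKP2 exceeded 83.7%, UBE2C 51.1%, CKS1B 44.3%, CDC20 34.5% and UBE2S 9.21%.

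The position of CDC20 depended on the measure. By fragments over the summit it exceeded 5.05% of the 6972 genes, its local background being at the floor. The median of the 8 genes was a fold enrichment of 12.2, against 8.36 over all 6972. The set thus held 2 of the 22 most enriched genes together with genes at or below the middle of the distribution.

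**Figure D3:**
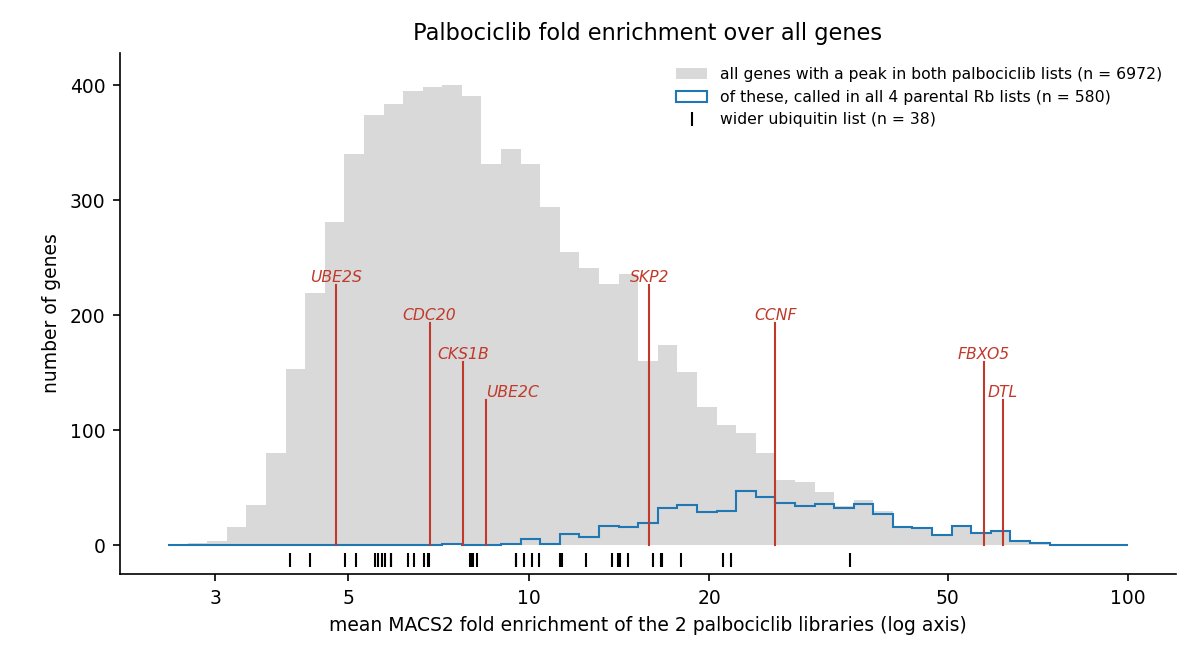
Number of genes by mean palbociclib fold enrichment (log axis) for all 6972 genes with a peak in both palbociclib libraries, with the 580 called in all 4 lists outlined, the 8 genes as red lines and the wider ubiquitin list as black ticks. DTL and FBXO5 lay at the upper end, while UBE2S lay in the lower tail.

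Summits lay close to start sites for most genes. The median absolute distance to the nearest TSS with palbociclib was 48.2 bp over the 8 genes, against 106 bp over 8731 genes with a peak in at least 1 palbociclib list. Both summits were within 100 bp of a TSS for 6 of 8 genes, compared with 37.1% of all genes with a peak in both lists. The exceptions were CDC20, at -396 and -136 bp, and UBE2S, at -301 and -477 bp. SKP2 has 20 annotated start sites, which brings a TSS closer to any summit, and its palbociclib summits lay 0 and -27 bp from the nearest and -44 and -71 bp from the canonical one.

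At FBXO5 the summit was not at the canonical start. It lay at -481 and -507 bp from the canonical TSS with palbociclib, and at 57 and 31 bp from the most upstream TSS, at position 152983579 of chromosome 6. The DMSO summits lay at -454 and -326 bp from the canonical TSS. A second, weaker FBXO5 peak was called in 1 palbociclib library, 489 bp downstream of the canonical TSS, with a fold enrichment of 4.68. At CCNF the summits ranged from -102 to -68 bp of the canonical TSS over the 4 libraries. In 1 palbociclib library an additional peak lay in the gene, 908 bp downstream of that TSS, with a fold enrichment of 4.62. The main CCNF peak of the other palbociclib library covered the summit of this additional peak.

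The replicate peaks overlapped each other in 7 of 8 genes with palbociclib, against 95.6% of all genes with a peak in both lists. CDC20 was the exception. Its 2 peaks, 153 and 159 bp wide, were separated by 72 bp. The first had its summit 91 bp inside the divergent non-coding gene CDC20-DT, and the second lay between the 2 start sites, which are 305 bp apart. If the replicate peaks must overlap, 7 of the 10 genes were bound with palbociclib, compared with 33.4% of all genes, and 4 were called only with the drug, compared with 26.9%.

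**Figure D4:**
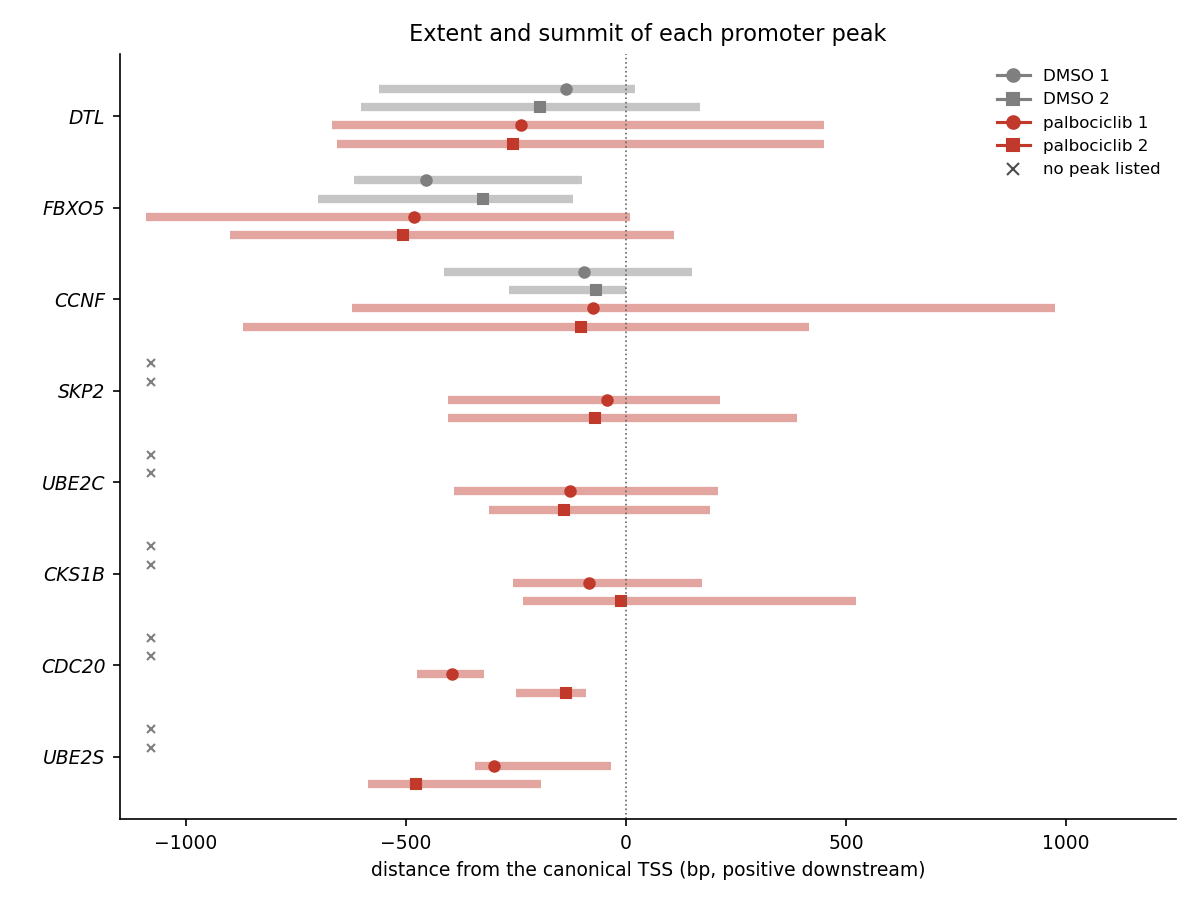
Extent (bars) and summit (symbols) of each promoter peak, as distance in bp from the canonical TSS (positive downstream), for the 8 genes with a peak, with crosses where no peak was listed. Peaks of DTL, FBXO5 and CCNF were wider with palbociclib, and the CDC20 peaks of the 2 replicates did not overlap.

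Several of these peaks sit on promoters shared with a neighbour, and the lists cannot assign them to either gene. DTL and INTS7, a subunit of the Integrator complex, lie on opposite strands. Their closest annotated start sites are 4 bp apart, and all 4 DTL peaks covered both. With palbociclib the DTL summits lay -43 and -62 bp from the nearest DTL TSS and -238 and -257 bp from the canonical one. The same summits lay 10 and 29 bp downstream of the nearest INTS7 TSS. The start sites of SKP2 and LMBRD2 are 102 bp apart, those of CKS1B and SHC1, which encodes a signalling adaptor, 258 bp, and those of FBXO5 and the non-coding ENSG00000227627 111 bp. The CKS1B peaks also fell in the promoter region of MIR4258. CCNF, UBE2C and UBE2S shared their peaks with no other annotated promoter.

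FZR1 and CKS2 had no promoter or gene body peak in any list, although Rb was called nearby with palbociclib. The peaks nearest to CKS2 lay 7.67 and 7.64 kb downstream at the SECISBP2 promoter, with fold enrichments of 23.1 and 20.6. The peaks nearest to FZR1 lay at the DOHH promoter, 5.54 and 5.58 kb upstream, with fold enrichments of 4.61 and 3.61. The calls for the coactivators of the APC/C therefore differed, CDC20 having a weak peak and FZR1 none. So did those for the paralogues CKS1B and CKS2. With the CDC20 call uncertain and FZR1 without a value, a difference in binding between the coactivators was not shown. Nor was one shown between CKS1B and CKS2, as CKS2 has no value and the CKS1B peaks lie on a promoter shared with SHC1. With DMSO the peaks nearest to CKS1B were at the FLAD1 promoter, 5.87 kb away in both lists, with fold enrichments of 12.1 and 8.53.

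CHR letters lay near the summits of more of these genes than the full E2F letters did. The letters were read for 7 of the 8 bound genes, all but UBE2C. In windows of 100 bp either side of the higher palbociclib summit, the CHR letters TTTGAA or TTCGAA, on either strand, occurred in 3 of 7 genes, CDC20, CKS1B and CCNF, and in 4.23% of 5792 distinct promoter windows of the same length. CCAAT occurred in 4 of 7, these 3 and UBE2S, against 26.3%. The E2F letters TTTGGCGC, TTTCCCGC, TTTGCCGC or TTTCGCGC were in 0 of 7 windows, against 5.99%, and the forms lacking the first T, which overlap them, also in 0 of 7, against 24.3%. These windows were less GC-rich for 6 of the 7 genes, at 55.7% to 64.7%, than the median of 70.6% over all windows, and CCNF was at 79.1%.

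In CCNF, the CHR letters printed above were centred 6 bp upstream of the higher palbociclib summit. In CKS1B they overlapped the most upstream TSS and were centred 15 bp upstream of the higher summit. In CDC20 the CHR and second CCAAT of the printed stretch lay outside both peaks, while a further CHR match at -175 bp from the TSS was inside the second peak.

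Wider windows, of a length chosen after these positions were seen, placed E2F letters beside DTL and SKP2. Within 300 bp of the summit, full E2F letters occurred in 2 of 7 genes, DTL and SKP2, against 14.7% of windows, and CHR letters in 5 of 7, against 15.0%. At DTL, TTTGGCGC was at -4 bp from the canonical TSS and 253 bp downstream of the higher summit, next to CRE letters. At SKP2 the match lay 149 bp downstream of the higher summit. FBXO5, with the second highest enrichment, had neither E2F nor CHR letters within 300 bp of its summit, although CHR letters were in its peaks at 443 bp. CKS2, which had no peak, held 3 CCAAT matches and a CHR match in its RefSeq promoter window of 300 bases. In these windows CHR letters occurred in 5 of 9 genes, CDC20, FZR1, CKS1B, CKS2 and CCNF, against 13.4% of 15316 genes. FZR1, like CKS2, had no peak. CCAAT occurred in 6 of 9, against 36.6%. Letters of this kind were therefore found both with and without a called peak.

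The rest of the pathway was read from a list of 49 other genes. These encode ligase components and conjugating enzymes, together with regulators and substrates of the ligases. Of these, 38 (77.6%) had a promoter peak in both palbociclib lists, a share close to the 8 of 10 above, compared with 34.9% of all genes. By role these were 11 of 14 APC/C subunits, 4 of 6 SCF and CUL4 core genes, 5 of 7 other substrate adaptors, 3 of 4 conjugating enzymes, 4 of 6 neddylation genes, 3 of 3 checkpoint inhibitors of the APC/C, 6 of 7 substrates and 2 of 2 deubiquitinases. A peak in both palbociclib lists and in neither DMSO list was found for 26 of the 49, compared with 28.4% of all genes. Both DMSO lists held a peak for 5 (10.2%), compared with 2.91% of all genes: the APC/C subunits ANAPC11, ANAPC13 and ANAPC15, the checkpoint protein BUB3, and the replication inhibitor GMNN, a substrate of the APC/C. With IgG2a 1 of the 49, CCNB1, had a promoter peak, with a fold enrichment of 5.16 beside 5.87 and 5.33 with the Rb antibody and palbociclib, and 0 of 49 had one in RB1 KO cells. The share with IgG2a in all genes was 1.95%, near that of the list, and in RB1 KO cells 0.0100%. With only the 816 best peaks per parental list, 3 of the 49 had a peak in both palbociclib lists, against 3.82% of all genes.

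GMNN had the highest mean palbociclib fold enrichment of the wider list, 34.3, followed by the scaffold CUL4B at 21.8, the deubiquitinase USP37 at 21.1 and ANAPC11 at 17.9. For 9 of the 38 the same palbociclib peaks also lay in the promoter of another protein-coding gene and cannot be assigned to either. Among those named here, ANAPC11 shared its peaks with ALYREF, ANAPC13 with CEP63 and USP37 with CNOT9. The median of the 38 was 8.86, close to that of all genes. The APC/C subunits CDC26 and CDC27, the SCF and CUL4 adaptors SKP1 and DDB1, the substrate receptor AMBRA1 and the conjugating enzymes UBE2D1 and UBE2M had no promoter peak in either palbociclib list. By this mean, every gene of the wider list was below DTL and FBXO5.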

How the data were processed

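Per the study's methods, reads were trimmed (BBDuk) and aligned to hg38 (Bowtie2 2.3.4.1). Reads in blacklisted regions or on mitochondrial DNA were discarded and duplicates retained. The authors called peaks per library with MACS2 2.2.7.1 (paired-end mode, IgG control, q cutoff 0.05). The control used for the IgG2a list is not given in the sources used here. The deposited lists give a score, a fold enrichment (ratio), a −log10 p and a −log10 q per peak, and a summit offset. The score was not used.

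Genes and TSSs came from GENCODE 44. No peak on chromosomes 1 to 22 and X ended past the reference, and contigs and decoys were not analysed. Peaks had to overlap the promoter by at least 1 bp. Whole-fragment pileups and local backgrounds were recovered from fold enrichment and −log10 p, and the recalculated −log10 p differed by at most 0.0055. Recovery and promoter calling were tested on simulated data. Log2 fold enrichment of single genes was compared by an exact permutation test. Python 3.11.15, NumPy 2.4.6, SciPy 1.17.1 and Matplotlib 3.10.9 were used. Groups came from sample titles.

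The genes and lists were chosen with earlier results of these data known. Named beyond the 10 genes were those sharing a peak with them and, of the wider list, the 4 most enriched, all with a peak in both DMSO lists and all without a palbociclib peak. The genes at the nearest peaks of FZR1, CKS2 and CKS1B, those sharing peaks with the wider list, and CCNB1, were named after their values were seen. Promoter sequences matched 9 of the 10 genes in RefSeq, and that of UBE2C is not reported here. Alternatives covered the promoter window, TSS set, peak thresholds, list length, overlap rule, choice of peak, measure and each library left out.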

Additional observations from a re-analysis of the deposited data

How the results depend on the processing

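Of the summary values under alternative settings, 68 kept their direction and, within the tolerance used, their size, and 9 moved. Some of the 68 could not change, because the library left out did not enter the value. A count was taken as unmoved when it stayed within a factor of 1.5. This tolerance hid some losses. Genes of the set with a peak in both palbociclib lists fell from 8 to 6 under either limit of 5, on −log10 q or on enrichment. For the wider list this count fell from 38 to 30 with the −log10 q limit and to 32 with the enrichment limit. No share of all genes with a peak in both palbociclib lists is given under these limits. All 18 values for FBXO5, CCNF and DTL alone kept their direction. Leaving out 1 library could not reverse it, because both palbociclib values exceeded both DMSO values at each of these genes. The log2 difference of FBXO5 changed in size, to 3.44 without DMSO replicate 1 and 2.25 without DMSO replicate 2. Limiting each parental Rb list to its 816 best peaks moved most. Then 4 genes (DTL, FBXO5, CCNF and SKP2) had a peak in both palbociclib lists, compared with 3.82% of all genes. Under that limit 1 (SKP2) was called only with palbociclib, compared with 0.731%. Of the wider list, 3 of 49 genes had a peak in both palbociclib lists, again against 3.82%. The median summit distance was then 40.0 bp. The number called only with palbociclib was 3 at a −log10 q of at least 5 and 3 at a fold enrichment of at least 5. TSSs of protein-coding transcripts alone gave a median summit distance of 59.2 bp, and leaving out single libraries gave 48.2 to 56.5 bp. The overlap requirement between replicate peaks was chosen after seeing the data. With the replicate number as a block, the log2 differences were 2.84 for FBXO5, 2.09 for CCNF and 2.20 for DTL, with an exact paired p of 0.500, the smallest it allows. Same-numbered libraries did not deviate together (r = 0.06 across 580 genes, which are not independent replicates), so the numbers are not shown to pair samples. Genes under the calling threshold have no value, which limits every statement about DMSO.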
